A study of Homo sapiens with 2 samples.

Results

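Interferon signalling begins at cell-surface receptors, and the genes described here encode those receptors, the kinases bound to them and the transcription factors that the kinases activate: IFNAR1, IFNAR2, IFNGR1, IFNGR2, JAK1, JAK2, TYK2, STAT2 and STAT3. The rule takes these genes by name, as parts of the pathway, and the list was drawn up with earlier results of these data known. All 9 were found among the 26370 gene names in the files, with 18 transcript records. RNA was measured in the human CHME3 line, immortalised cells labelled as microglia and used at passages 4 to 6. The untreated group is 1 library of cells without drug, and the treated group is 1 library of cells exposed to drugs that block muscarinic acetylcholine receptors (muscarinic receptor antagonists), at 5 µg/ml, which the labels give as the EC50, with no compound name or exposure time. No difference below has a replicate check, and no p-value is given.

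Type I interferons bind a receptor built from IFNAR1 and IFNAR2, and interferon gamma binds a receptor built from IFNGR1 and IFNGR2. The receptor chains have no enzyme activity of their own and rely on the Janus kinases TYK2, JAK1 and JAK2, which phosphorylate STAT proteins. STAT2 joins other subunits, among them IRF9, in the factor that switches on antiviral genes, while STAT3 mainly serves cytokines of the interleukin-6 family. In microglia, the macrophages of the brain, this pathway drives antiviral and inflammatory states.

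The cell type label was checked against marker genes, in FPKM (fragments normalised to transcript length and to library depth). Of 19 microglia and macrophage markers 10 were listed at 0 in both libraries, among them AIF1, TMEM119, CX3CR1, PTPRC and ITGAM, and 16 were under 1 FPKM in both. CD68, a lysosomal protein of macrophages, was at 15.7 and 12.6 FPKM, and CD14, a receptor for bacterial lipopolysaccharide, at 1.97 and 1.63. Of 15 neuron, astrocyte and oligodendrocyte markers 13 were under 1 FPKM in both. The others were TUBB3, at 29.3 and 29.9 FPKM, and SLC1A3, at 3.97 and 5.25. Their treated to untreated ratios were 1.02 (95% counting interval 0.874 to 1.19) and 1.32 (1.02 to 1.71). Of 13 fibroblast and matrix markers 11 averaged 1 FPKM or more, 8 higher and 3 lower in the treated library. All 13 had a summed level of 6403 and 6939 FPKM, most of it from FN1 (2725 and 3021) and VIM (1967 and 2025). The collagen genes COL3A1, at 0 in both, and COL1A2, at 0.196 and 0.157 FPKM, were the markers below 1 FPKM. Of the 11 fibroblast and matrix markers, 8 had a 95% counting interval of the treated to untreated ratio above 1 and 0 had one below. Of all genes that averaged 1 FPKM or more, 6.64% and 6.21% did so. Such intervals narrow as fragments rise, and VIM, on 26133 and 28928 fragments, had a ratio of 1.03 (1.01 to 1.05). COL1A1, on 19573 and 22881 fragments, had a ratio of 1.09 (1.07 to 1.11). The largest ratio of the 11 was 1.25, for TAGLN, and none reached 1.5-fold. The part of these differences in the results below was not tested.

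All 9 genes were expressed, and none differed between the 2 libraries by more than counting error. Values are FPKM summed over a gene's transcripts. The depth, estimated from the files' own bounds, was 6834691 (untreated) and 7312570 (treated) fragments. In the log2 ratio used for all genes, 1 FPKM was added to each value, which understates the change of genes with low values. On this scale the 9 genes had a median of 0.00 and ran from -0.09 for IFNGR2 to 0.18 for IFNAR1, beside a median of 0.00 and quartiles of -0.10 and 0.11 over the 11668 genes whose mean over both libraries was 1 FPKM or more, the floor used throughout. Of the 9 genes 5 were higher and 4 lower in the treated library, where 50.7% of all genes over the floor were higher and 49.3% lower. None of the 9 reached 1.5-fold, a size that 2.23% of all genes reached, and none reached 2-fold, which 0.66% of all genes reached, 0.351% as higher and 0.309% as lower. The 95% counting interval of the FPKM ratio, an exact binomial interval on fragments, included 1 in all 9, where 12.8% of all genes had an interval that excluded 1. Among the 8090 genes with between 157 and 2669 fragments over both libraries, the range of the 9 genes, that share was 12.2%, with 6.35% above and 5.86% below 1. In 8 of the 9 genes the interval lay within 1.5-fold in both directions, and in all 9 it lay within 2-fold. In these bulk samples, fewer cells that express a gene and less of its RNA per cell cannot be told apart.

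**Figure D1:**
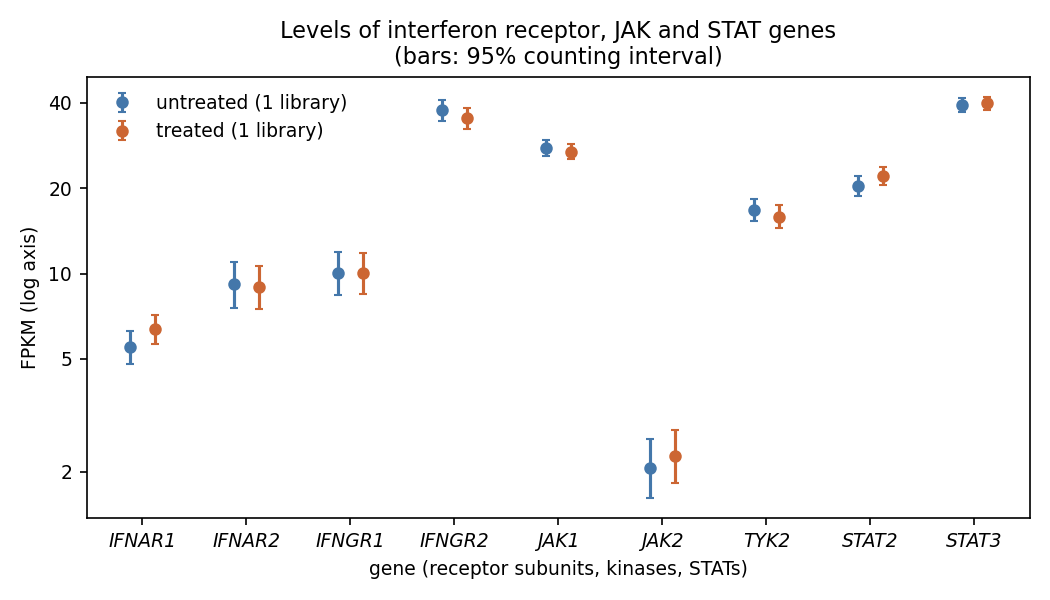
FPKM on a log axis for each gene in the untreated and treated libraries, 1 point per library, with 95% counting intervals. The points of each gene lie close together, and the genes span from about 2.07 FPKM for JAK2 to 39.8 FPKM for STAT3.

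The order of the genes by level was the same in both libraries, with STAT3 first, followed by IFNGR2, JAK1, STAT2, TYK2, IFNGR1, IFNAR2, IFNAR1 and JAK2. FPKM is per length, so levels were set side by side between genes. The intervals hold counting error only, and other differences between genes in how they are measured are outside them. Neighbours in this order had counting intervals that did not overlap, in either library, except for STAT3 with IFNGR2 and IFNGR1 with IFNAR2. STAT3 lay above 82.7% and 83.3% of the genes over the floor in the untreated and treated libraries, and JAK2 above 10.96% and 12.6%.

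Of the type I interferon receptor, IFNAR1 was the chain with less mRNA. IFNAR1, the chain to which TYK2 binds (chromosome 21, 33324909 to 33359822, hg38, plus strand, 11 exons), was at 5.50 FPKM (counting interval 4.80 to 6.28) in the untreated and 6.36 FPKM (5.63 to 7.16) in the treated library, from 222 and 275 fragments. The treated value was higher and the intervals overlapped. The FPKM ratio of IFNAR1 was 1.16, with a counting interval of 0.965 to 1.39, the largest distance from 1 among the 9 genes. Across all genes over the floor, 28% had a larger absolute log2 ratio than IFNAR1. Among the 8090 genes in the fragment range of the 9 genes, that share was 21.5%. IFNAR2, the chain that holds JAK1 and binds interferon most tightly (chromosome 21, 33229895 to 33264513, plus strand, up to 9 exons), was at 9.16 FPKM (7.58 to 10.97) and 8.99 FPKM (7.50 to 10.6), from 118 and 133 fragments. The IFNAR2 values of the libraries lay inside each other's intervals, with an FPKM ratio of 0.981 (0.760 to 1.27). Per length, IFNAR2 was 1.66 times IFNAR1 in the untreated library (1.32 to 2.09) and 1.41 times in the treated library (1.14 to 1.74).

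Most of the IFNAR2 signal was split between a short and a long receptor form that differ in their last exon. Both span the membrane, and the long form carries the cytoplasmic tail through which the receptor signals. The remaining form skips the exon of 131 bases before the last one, which shifts the reading frame, and gives a soluble receptor. In the GENCODE 29 annotation the longest coding parts that match these records are 515 codons for the long, 331 for the short and 239 for the exon-skipped form. Shorter coding parts of 229 codons for the long and 167 for the exon-skipped form also match. The sequences below, from GENCODE 29 transcripts on GRCh38 and written 5′ to 3′ on the plus strand, show what separates the forms: the capitals mark the skipped exon (chr21:33260597-33260727) and the first 30 bases of the long (chr21:33262793-33262822) and short (chr21:33262561-33262590) last exons, after 20 bases of the preceding exon in lower case.
IFNAR2 skipped exon: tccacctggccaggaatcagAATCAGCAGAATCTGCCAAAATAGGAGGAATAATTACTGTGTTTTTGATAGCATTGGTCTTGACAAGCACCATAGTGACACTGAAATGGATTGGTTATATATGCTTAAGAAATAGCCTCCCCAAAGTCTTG
IFNAR2 long last exon: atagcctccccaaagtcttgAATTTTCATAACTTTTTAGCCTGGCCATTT
IFNAR2 short last exon: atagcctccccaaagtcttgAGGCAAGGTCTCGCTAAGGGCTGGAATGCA

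The records with the short last exon summed to 5.00 FPKM in the untreated and 4.16 FPKM in the treated library, or 54.6% and 46.3% of IFNAR2. The records with the long last exon summed to 3.44 and 4.44 FPKM, or 37.5% and 49.4%. The exon-skipped records summed to 0.720 and 0.391 FPKM, or 7.86% and 4.35%. The short form thus held the larger share in the untreated library and the long form in the treated library, but the main record of each form had overlapping bounds in the authors' files. NM_207584, the main short record, was at 5.00 FPKM with bounds of 3.13 to 6.87 and at 4.12 FPKM with bounds of 2.51 to 5.73. NM_207585, the main long record, was at 3.44 FPKM (2.41 to 4.46) and 3.76 FPKM (2.74 to 4.79). NM_001289126, the main exon-skipped record, was at 0.720 FPKM (0.137 to 1.30) and 0.340 FPKM (0 to 0.733). The remaining difference came from NM_001289125, a long record with 46 more bases than NM_207585, which was at 0.000136 FPKM (0 to 0.106) in the untreated and 0.675 FPKM (0.155 to 1.20) in the treated library. The main short record stayed above the main long record there, so the larger share of the long form rested on NM_001289125. NM_001289125 had an estimated 0 and 14 fragments. Its bounds do not overlap, and it was the only one of the 15 transcripts of these genes with at least 0.3 FPKM in a library for which that was so. Of all 21664 such transcripts, 18.4% had bounds that do not overlap.

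The interferon gamma receptor showed a wider gap between its chains. IFNGR1, the chain that binds interferon gamma and carries the STAT docking site (chromosome 6, 137197484 to 137219430, minus strand, 7 exons), was at 10.02 FPKM in both libraries, with counting intervals of 8.38 to 11.9 in the untreated and 8.44 to 11.8 in the treated library, from 132 and 142 fragments. The FPKM ratio of IFNGR1 was 1.0003, with an interval of 0.784 to 1.28. IFNGR2, the signalling chain that holds JAK2 (chromosome 21, 33402896 to 33437521, plus strand, 7 exons), was at 37.6 FPKM (34.4 to 40.9) and 35.3 FPKM (32.3 to 38.4), from 521 and 526 fragments. IFNGR2 was a little lower in the treated library, with overlapping intervals and an FPKM ratio of 0.939 (0.830 to 1.06). Per length, IFNGR2 was 3.75 times IFNGR1 in the untreated (3.09 to 4.58) and 3.52 times in the treated library (2.92 to 4.27). A second IFNGR2 record, on an alternative contig, was listed at 0 in both. IFNGR2 overlaps the opposite-strand gene TMEM50B by 5036 bases (chromosome 21, 33432486 to 33437521). TMEM50B was at 7.47 and 8.95 FPKM, and the labels do not say whether reads keep strand.

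Besides IFNGR2, the genes around the receptor cluster on chromosome 21 give the setting of IFNAR1 and IFNAR2. IL10RB, the chain shared by the receptors of interleukin-10 and interferon lambda, lies between them and had 16.7 and 16.0 FPKM, which gives 0.957 as the ratio (0.785 to 1.17). Of 10 neighbours listed, 7 were over the floor, with a median log2 ratio of 0.06, 5 higher and 2 lower. The interval included 1 in all 7. TMEM50B, a membrane protein, had an FPKM ratio of 1.20 (0.935 to 1.54), the highest of the 7. GART, a purine synthesis enzyme, was at 57.3 and 60.7 FPKM, SON, a splicing cofactor, at 59.3 and 61.9, and DONSON, a replication factor, at 33.0 and 31.4. CRYZL1 was at 8.48 and 9.12 FPKM and ITSN1, an endocytic scaffold, at 12.1 and 12.1. DNAJC28, below the floor, had 0.563 FPKM (5 fragments) and 1.25 FPKM (12 fragments), with an interval of the ratio from 0.730 to 8.07. OLIG1 and OLIG2, transcription factors of the oligodendrocyte lineage, were at 0 in both libraries and at 0.0184 and 0.00293 FPKM.

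**Figure D2:**
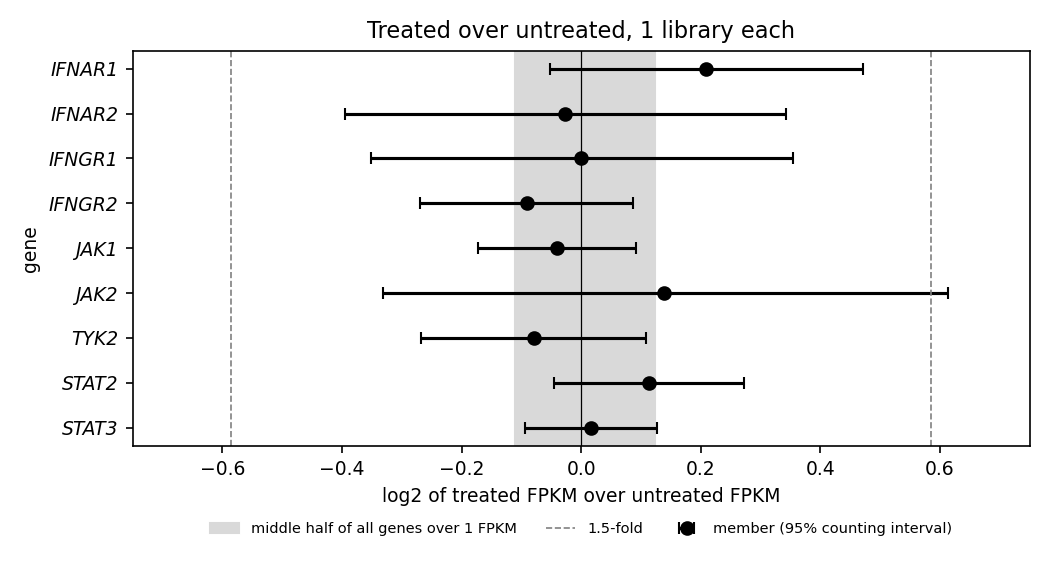
Log2 of treated over untreated FPKM (horizontal axis, no pseudocount) for each gene, with 95% counting intervals. The grey band spans the quartiles of all genes over the floor, from -0.11 to 0.12, and dashed lines mark 1.5-fold. Every interval crosses 0, and only that of JAK2 reaches past a dashed line.

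Among the kinases, JAK1 had the highest level and JAK2 the lowest. JAK1, used by all interferon receptors and by the gp130 family (chromosome 1, 64833223 to 64966504, minus strand, 25 exons), was at 27.7 FPKM (25.9 to 29.5) in the untreated and 26.9 FPKM (25.2 to 28.7) in the treated library, from 920 and 959 fragments. Its values overlapped, with an FPKM ratio of 0.972 (0.887 to 1.07). The 3′ end of JAK1 overlaps that of RAVER2, a gene on the opposite strand, by 9 bases (chromosome 1, 64833223 to 64833231), and RAVER2 was at 3.86 and 2.91 FPKM. TYK2, the kinase of IFNAR1 (chromosome 19, 10350528 to 10380572, minus strand, 25 exons), was at 16.8 FPKM (15.3 to 18.4) and 15.9 FPKM (14.5 to 17.4), from 465 and 472 fragments, a ratio of 0.946 (0.831 to 1.08). JAK2, the kinase of IFNGR2 and of several growth factor and hormone receptors (chromosome 9, 4985245 to 5128183, plus strand, 25 exons), was at 2.07 FPKM (1.62 to 2.60) and 2.28 FPKM (1.82 to 2.82), from 72 and 85 fragments. The JAK2 ratio was 1.10, and its interval of 0.795 to 1.53 was the widest of the 9 genes, JAK2 having the fewest fragments. Per length, JAK1 was 13.4 times JAK2 in the untreated library (10.5 to 17.3) and 11.8 times in the treated library (9.46 to 14.9). JAK1 was 1.65 times TYK2 (1.48 to 1.85) and 1.70 times (1.52 to 1.90). Of the kinases, JAK3, which serves lymphocyte cytokine receptors, was below the floor at 0.281 and 0.182 FPKM, from 10 and 7 fragments.

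STAT3 was above STAT2 in both libraries, and neither differed between libraries beyond counting error. STAT2, the STAT specific to type I and type III interferon signalling (chromosome 12, 56341598 to 56360253, minus strand, 24 exons), was at 20.4 FPKM (18.8 to 22.1) in the untreated and 22.1 FPKM (20.5 to 23.8) in the treated library, from 608 and 705 fragments. The STAT2 value was higher in the treated library and the intervals overlapped, with a ratio of 1.08 (0.969 to 1.21). STAT3 (chromosome 17, 42313325 to 42388495, minus strand, 24 exons) was at 39.4 FPKM (37.2 to 41.6) and 39.8 FPKM (37.7 to 41.95), from 1280 and 1389 fragments. The STAT3 values were nearly equal, and the ratio of 1.01 had the narrowest interval of the 9 genes, 0.937 to 1.09. Per length, STAT3 was 1.93 times STAT2 (1.75 to 2.13) in the untreated and 1.80 times (1.65 to 1.98) in the treated library. Of the other STATs, STAT5B was at 10.5 and 11.1 FPKM, STAT6, which serves interleukin-4, at 8.97 and 9.72, and STAT5A at 1.21 and 1.36. All of these were higher in the treated library by a log2 ratio of 0.07 to 0.11, with intervals that include 1. STAT4, which serves interleukin-12, was at 0.0566 FPKM and 0.

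The STAT records in the files differ by short stretches at splice junctions, shown here because the transcript values of STAT3 rest on them. The sequences are GENCODE 29 cDNA on GRCh38, 5′ to 3′ along the minus-strand genes. Capitals mark the bases that one record has and another lacks, with 20 bases of the transcript on either side.
STAT3 3-base stretch (chr17:42322282-42322284), end of exon 21: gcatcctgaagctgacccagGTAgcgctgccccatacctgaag
STAT3 50-base stretch (chr17:42316852-42316901), start of exon 23: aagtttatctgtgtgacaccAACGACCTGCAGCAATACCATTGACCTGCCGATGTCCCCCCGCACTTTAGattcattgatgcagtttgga
STAT2 12-base stretch (chr12:56355792-56355803), start of exon 4: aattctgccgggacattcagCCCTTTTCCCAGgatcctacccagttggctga

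All of these bases are coding. NM_139276, the main STAT3 record, has both of its stretches and matches a coding sequence of 770 codons, the alpha form. A shorter coding sequence of 672 codons also matches NM_139276. NM_003150 lacks the 3 bases and matches one of 769 codons. NM_213662 lacks the 50 bases, which are not a multiple of 3, and matches one of 722 codons, the beta form with a different C-terminal end. NM_003150 also lacks 22 bases near the start of the transcript, so it shares 4948 of the 4973 bases of NM_139276, and NM_213662 starts 108 bases later. In STAT2, NM_005419 has the 12 bases and matches 851 codons, while NM_198332 lacks them and matches 847.

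The main STAT3 record held a larger share of the gene in the treated library, with bounds that overlap. NM_139276 was at 24.5 FPKM, with the authors' bounds of 22.3 to 26.7, in the untreated and at 27.7 FPKM (25.4 to 29.98) in the treated library, or 62.2% and 69.5% of STAT3. NM_003150 was at 10.9 FPKM (9.40 to 12.5) and 8.79 FPKM (7.45 to 10.1), or 27.8% and 22.1%. NM_213662, the beta record, was at 3.94 FPKM (2.93 to 4.94) and 3.34 FPKM (2.45 to 4.24), or 9.997% and 8.40%. The main record was thus higher and the others lower, while the sum of STAT3 stayed within counting error. Treating the divided fragments as plain counts, the ratio was 1.13 (1.03 to 1.24) for NM_139276 and 0.804 (0.688 to 0.939) for NM_003150, and both intervals exclude 1. Those intervals leave out the error of dividing fragments between records that differ by 25 bases, whereas the authors' bounds of these records are wider and overlap. Both STAT2 records also had overlapping bounds. NM_005419 was at 14.8 FPKM (13.1 to 16.5) and 16.7 FPKM (14.9 to 18.5), or 72.3% and 75.6%, and NM_198332 at 5.65 FPKM (4.47 to 6.84) and 5.39 FPKM (4.26 to 6.52), or 27.7% and 24.4%.

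**Figure D3:**
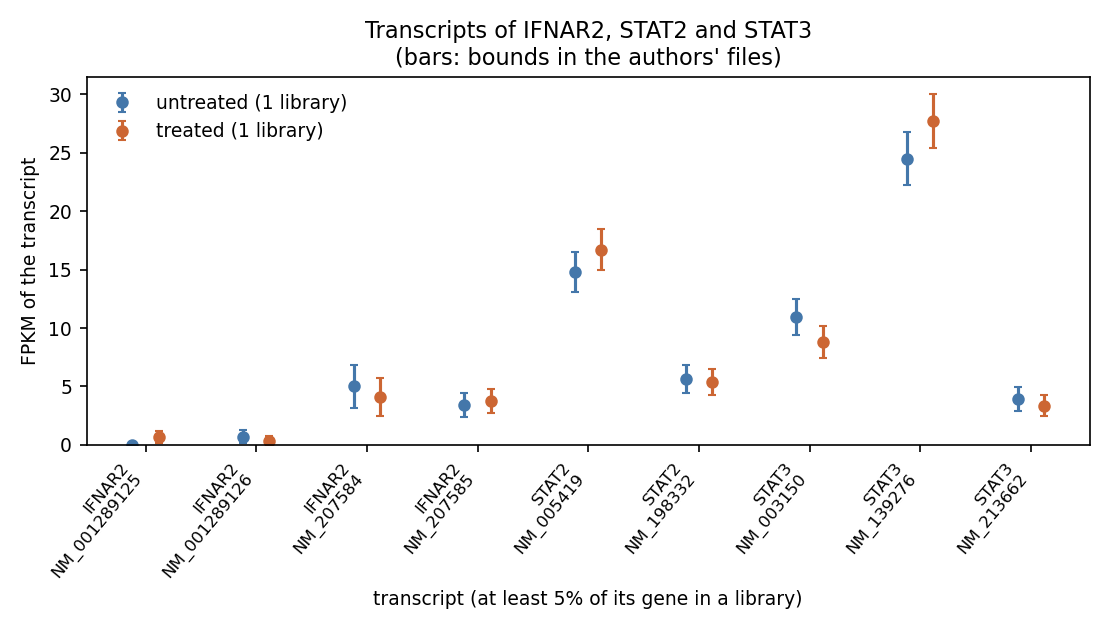
FPKM of each transcript of IFNAR2, STAT2 and STAT3 that made up at least 5% of its gene in a library, 1 point per library, with the bounds given in the authors' files. The bounds overlap for every record shown except NM_001289125 of IFNAR2, and NM_139276 of STAT3 is the highest, at 24.5 and 27.7 FPKM.

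The ligands of these receptors were not detectable at this depth. Of 21 interferon genes listed, 19 were at 0 in both libraries, and all 21 were under 1 FPKM in both. IFNB1, the interferon beta gene, was at 0, where 3 fragments would correspond to 0.678 FPKM (untreated) and 0.624 FPKM (treated). IFNG, the interferon gamma gene, was also at 0, with limits of 0.431 and 0.399 FPKM. IFNE, an epithelial type I interferon, was at 0.114 FPKM from 1 fragment in the untreated library and at 0 in the treated library. IFNLR1, the specific chain of the interferon lambda receptor, was at 0.138 and 0.168 FPKM, chosen for mention after its values were seen.

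Genes induced by type I interferon, downstream of these receptors and STAT2, were mostly higher in the treated library, and their difference from the receptors, JAKs and STATs was not tested. Of 40 such genes 34 were over the floor. Of these, 32 were higher and 2 lower, beside 50.7% and 49.3% of all genes, with a median log2 ratio of 0.31. The interval of the ratio lay above 1 in 16 and below 1 in 0, where 6.64% and 6.21% of all genes did so, and 4 were at least 1.5-fold higher, a size that 1.2% of all genes reached in that direction. That count is on the scale with 1 FPKM added, so genes at low levels can pass 1.5-fold on the plain FPKM ratio without being counted. The 4 were MX2, MX1, IFI6 and IFIT3, antiviral effector genes with log2 ratios on that scale of 0.84, 0.67, 0.67 and 0.60 and plain FPKM ratios of 2.17 (1.48 to 3.25), 1.63 (1.41 to 1.88), 1.60 (1.46 to 1.74) and 1.60 (1.23 to 2.08). Genes induced mainly by interferon gamma had 9 of 21 members over the floor, 6 higher and 3 lower, with a median of 0.08. The interval lay above 1 in 2 of these 9 and below 1 in 1, ICAM1, beside 6.64% and 6.21% of all genes. PSMB8, an immunoproteasome subunit summed over 16 transcript records, had 16.8 and 24.8 FPKM, which gives 1.47 as the ratio (1.15 to 1.88). GBP1, a guanylate-binding GTPase, had 1.10 and 1.67 FPKM, which gives 1.51 as the ratio (0.862 to 2.70), whereas PSMB9, another immunoproteasome subunit, was at 4.27 and 3.32, a ratio of 0.776 (0.413 to 1.44).

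Cytokines that signal through gp130, and so through JAK1 and STAT3, had lower values in the treated library, but only IL11 by more than counting error. Of 9 such genes 5 were over the floor, and all 5 were lower, beside 49.3% of all genes, with a median log2 ratio of -0.29. The interval lay below 1 in 1 of them, where 6.21% of all genes had such an interval. This was IL11, a cytokine of stromal cells, with 20.7 and 16.2 FPKM and a ratio of 0.783 (0.661 to 0.926). IL6 was at 6.05 and 4.78 FPKM, CLCF1 at 4.85 and 3.79, and CTF1, cardiotrophin, at 5.27 and 4.34, with ratios of 0.790 (0.488 to 1.27), 0.781 (0.515 to 1.18) and 0.823 (0.544 to 1.24). Of 17 known target genes of STAT3, 13 were lower and 4 higher, beside 49.3% and 50.7% of all genes, with a median of -0.07. The list shares 2 genes with the other cytokine receptors, 2 with the genes induced by interferon gamma, 1 with the negative regulators and 1, TIMP1, with the fibroblast and matrix markers. The interval lay below 1 in 4 of these 17 targets and above 1 in 1, TIMP1, where 6.21% of all genes lay below and 6.64% above. HIF1A, a transcription factor of the hypoxia response, had levels of 56.9 and 47.3 FPKM and a ratio of 0.832 (0.772 to 0.896). ICAM1, an adhesion molecule that interferon gamma also induces, had 9.35 and 7.55 FPKM, which gives 0.807 as the ratio (0.653 to 0.997). TIMP1, an inhibitor of matrix proteases, had 128 and 151 FPKM, which gives 1.18 as the ratio (1.06 to 1.31), and BCL3, an atypical inhibitor of NF-kB, at 10.9 and 13.4, a ratio of 1.23 (0.970 to 1.57).

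Restraints on JAK-STAT signalling and other receptors that use JAKs were divided between higher and lower. Of 19 negative regulators 17 were over the floor, with 9 higher, 8 lower and a median log2 ratio of 0.01. The interval lay below 1 in 2 of these 17 and above 1 in 0, beside 6.21% and 6.64% of all genes. CISH, a SOCS-family protein induced by STAT5, had 2.82 and 1.56 FPKM on 37 and 22 fragments, with 0.553 as the ratio (0.311 to 0.962). CBL, a ubiquitin ligase for receptors, had 16.7 and 14.6 FPKM, which gives 0.876 as the ratio (0.808 to 0.949). PTPN2, a phosphatase of JAK1 and STATs, had 6.40 and 8.27 FPKM, which gives 1.29 as the ratio (0.9501 to 1.76), and USP18, which restrains signalling at IFNAR2, at 1.19 and 1.62, a ratio of 1.36 (0.676 to 2.83). Of 37 other cytokine receptors 12 were over the floor, with 4 higher, 8 lower and a median of -0.04, and the interval included 1 in all 12. The farthest from 1 were IL27RA at 5.22 and 3.98 FPKM, IL11RA at 6.89 and 8.62, EPOR at 3.12 and 3.87 and LIFR at 2.81 and 2.40.

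**Figure D4:**
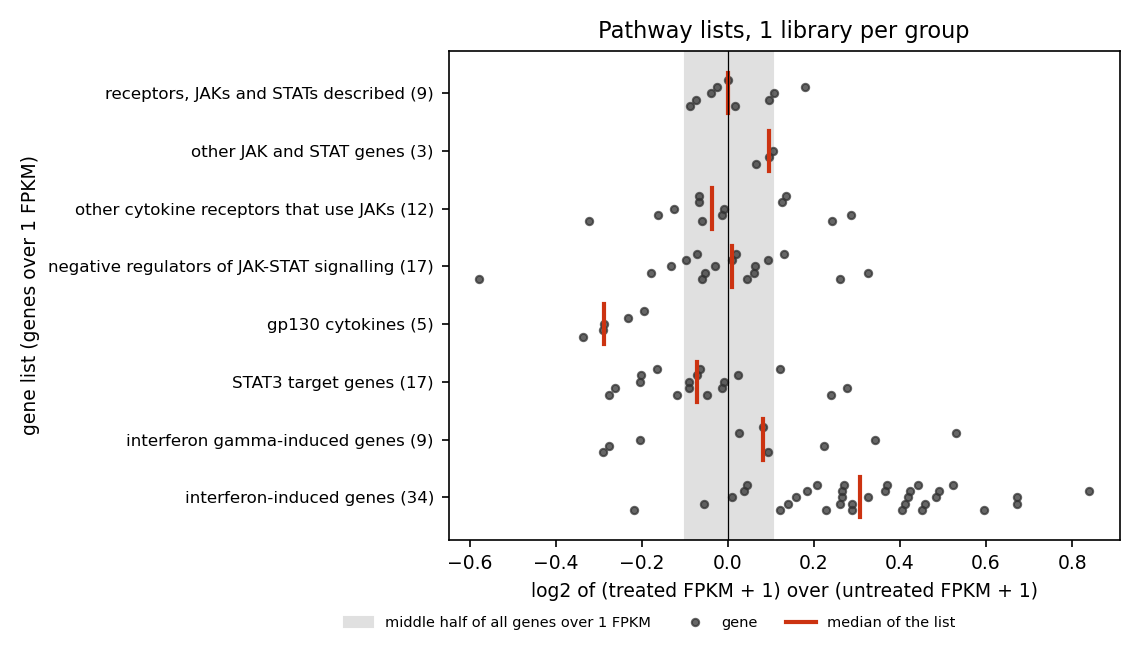
Log2 of (treated FPKM + 1) over (untreated FPKM + 1) for each gene over the floor, by list, with the list median as a red bar and the quartile range of all genes in grey. The receptors, JAKs and STATs centre on 0.00, the gp130 cytokines on -0.29 and the interferon-induced genes on 0.31.

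Promoter windows of the receptors, JAKs and STATs were searched for letters of known STAT binding motifs. The windows, from RefSeq on GRCh38.p14, run from 250 bases before to 50 bases after each annotated start. By symbol 8 of the 9 genes matched, with 15 windows, and IFNAR2 had no window. TTTC, any 2 bases and TTTC, a core of the interferon-stimulated response element that the STAT2-containing factor binds, was in 0 of these 15 windows on either strand and in 3.57% of all 35116 windows. Of the 40 interferon-induced genes 30 matched by symbol, also with 40 windows, and the motif was in 26 of these windows, or 65%, from 22 genes. TTCNNNGAA, the core of the gamma-activated site that STAT dimers bind, was in 0 of the 15 windows, in 27.5% of the windows of interferon-induced genes, from 10 genes, and in 7.66% of all windows. At the shares of all windows, few matches or none would be found in 15 windows. The count of 0 therefore does not set these genes apart from genes in general. Each motif was counted on its own, and a match describes letters only.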

How the data were processed

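The libraries were made with TruSeq kits and read on an Illumina HiSeq instrument, per the labels. TopHat and Cuffdiff were used with hg38, per the submitters' processing notes, with versions not given in the sources used here. The authors deposited FPKM per RefSeq transcript with lower and upper bounds, and a score per transcript that was not used. FPKM was summed per gene. A floor of a mean of 1 FPKM left 11668 of 26370 genes. Fragments were recovered from the bounds of single-transcript genes, and regressing fragments per FPKM on transcript length gave each library's depth. Every fragment number given here is an estimate from FPKM, transcript length and this fit, also for single-transcript genes. The authors' bounds can be wider than the counting interval. For JAK1 in the untreated library they were 25.5 to 29.9 FPKM, beside 25.9 to 29.5. With this depth 72.6% of 12334 untreated and 72.9% of 12402 treated genes with transcripts of at least 1000 bases and at least 3 fragments had whole fragments within 0.01. Intervals are 95% exact (Clopper-Pearson) for ratios and exact Poisson for levels, on rounded fragments. PCR duplicates and the division of reads between isoforms are outside these intervals, which hold counting error only.

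Groups follow the treatment labels. With 1 library per group no test was run, and a size rule of 1.5-fold or 2-fold was used. The ratio and interval code was tested on simulated data. Members and lists were chosen with earlier results of these data known. Named genes are all members, transcripts of at least 5% of a member, up to 4 genes per list with the largest absolute log2 ratio, every listed JAK, STAT and chromosome 21 neighbour, and others marked as such. No genes were named for a likeness to a member, since 2 libraries give 1 difference per gene. Alternatives were other pseudocounts, floors, scalings, the most abundant transcript and depth-scaled fragments. Protein sequences were not used here. Of the microglia markers, 1 and the summed level of its list are not reported here. Python 3.11.15, numpy 2.4.6, pandas 2.3.3, scipy 1.17.1 and matplotlib 3.10.9 were used.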

Additional observations from a re-analysis of the deposited data

How the results depend on the processing

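The 9 receptor, JAK and STAT genes were recomputed under 9 alternative settings, and none reached 1.5-fold under any of them. The median log2 ratio ran from -0.01 with a floor of 5 FPKM, which drops JAK2, to 0.02 with depth-scaled fragments, and 4 to 6 genes were higher. With the most abundant transcript in place of the sum, the counting interval excluded 1 in 1 gene, STAT3, whose log2 ratio was then 0.17. That value is of NM_139276 alone, and its interval leaves out the error of dividing fragments between the STAT3 records. The cause of this difference from the sum was not tested. IFNAR2 was at -0.23 with its most abundant transcript and 0.08 with depth-scaled fragments, and IFNGR1 changed sign when the ratios were centred on their median; the other 7 genes kept their sign. Over all genes, the numbers at least 2-fold higher and lower were 41 and 36. They were 88 and 84 with a pseudocount of 0.1 FPKM, 101 and 107 with the most abundant transcript and 23 and 20 with depth-scaled fragments. With a floor of 5 FPKM, 21 were higher and 24 lower, so the balance turned, as it did with the most abundant transcript. The cause of these shifts in count was not tested. Intervals do not depend on the pseudocount, so those settings gave no value for them. Leaving out a replicate was not possible with 1 library per group. No paired analysis was possible because each group has 1 library. JAK2, with the fewest fragments, is where depth limits the comparison most.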
